A study of Mus musculus with 9 samples.

Results

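Oxidative phosphorylation makes most of a resting cell's ATP in the inner mitochondrial membrane. Complexes I (NADH dehydrogenase), II (succinate dehydrogenase), III (cytochrome bc1) and IV (cytochrome c oxidase) pass electrons from NADH and succinate to oxygen, complexes I, III and IV pump protons as they do so, and ATP synthase (complex V) lets the protons back to make ATP. Nearly all of their subunits are nuclear-encoded, and some complex IV subunits come as tissue isoforms, among them the heart and skeletal muscle forms Cox6a2, Cox7a1 and Cox8b. In colon, absorptive cells burn butyrate from bacteria through this system, and the muscle coat and any attached tissue contribute their own mitochondria.

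The members are all probes whose gene symbol on the array platform starts with Nduf, Sdha, Sdhb, Sdhc, Sdhd, Uqcr, Cox4 to Cox8 or Atp5. The rule found 91 probes of 80 genes among 26423 probes, of which 20377 have 1 gene symbol. By role, 36 probes (32 genes) are subunits of complex I, 4 (4 genes) of complex II, 6 (6 genes) of complex III, 10 (9 genes) of complex IV and 12 (11 genes) of ATP synthase. These 68 probes of 62 genes are called the subunit probes here. The others are 8 probes of 7 assembly factors, 4 probes of 3 muscle isoforms, 6 probes of 5 other tissue isoforms, and 5 probes of 3 genes that share the prefix but encode no subunit. Of 100 protein-coding genes in RefSeq with these prefixes, 15 were not analysed here, among them Cox6b1, Cox7c, Atp5g2 and Atp5j. Another 8 have probes under older symbols that the prefixes do not match, among them the subunits Ndufb1 and Atp5mpl and 6 assembly factors, and were left out too.

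RNA from colon tissue of female BALB/c mice was hybridised to 9 arrays in 3 groups of 3. Vanillin mice had the azoxymethane (AOM) and dextran sodium sulfate (DSS) course, a chemical model of colitis-driven colon cancer, and swallowed 100 mg/kg vanillin, the aroma compound, on 91 consecutive days. Sham mice had the same course without vanillin: 12.5 mg/kg AOM into the peritoneum on day 1, then 2.5% DSS from day 8 for 5 days, 16 days of normal water, and 3 more such cycles. Mock mice are labelled as untreated. The labels give neither ages nor whether the arrays of a group stem from different mice, and the p-values therefore cover the spread between arrays, which may be technical.

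Values are probe intensities in linear units, and changes are differences between group means of log2(intensity + 16), the second-named group being subtracted. A probe was called at a limma adjusted p under 0.05 over all probes. Arrays of a group correlated at 0.9952 to 0.9976. The tissue label was checked against marker genes. The colonocyte markers were bright in all groups, with summed intensities of 114764 to 119613 on Vanillin, 149980 to 156862 on Sham and 170816 to 182446 on Mock arrays. Markers of squamous epithelium, skeletal muscle and fat were bright on Vanillin and Mock arrays. Among the 11 squamous markers Krtdap was at 0 on 1 array, and they summed to 284250 to 337003 on Vanillin, 23181 to 24144 on Sham and 470804 to 472848 on Mock arrays. Of the squamous markers 11 were called lower in Sham against Mock, 10 higher in Vanillin against Sham and 7 lower in Vanillin against Mock. Of the 10 colonocyte markers 5 were called higher and 3 lower in Sham against Mock (3 higher without Sham 2), beside 36.5% and 23.2% of all probes. In Vanillin against Sham 0 were called higher and 9 lower (0 higher at an unadjusted p under 0.05 in limma), beside 15.7% and 32.2%. The 9 became 6 without Sham 2, Vanillin 2 or Vanillin 3. In Vanillin against Mock 3 were called higher and 5 lower, beside 24.5% and 26.2%. Since every Vanillin and Mock array carried these genes, no comparison can be given without such arrays.

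Subunits of the 5 complexes changed little, with all 68 probes under 1 on the log2 scale in each comparison, and their median lay highest in Sham. In Sham against Mock, 30 of 68 subunit probes were called higher and 6 lower, with a median change of 0.14 beside 0.0975 over all probes. Over all probes, 36.5% were called higher and 23.2% lower in that comparison. In Vanillin against Sham, 36 of 68 were called lower and 0 higher, with a median of -0.21 beside -0.0938 over all probes. There 32.2% of all probes were called lower and 15.7% higher. In Vanillin against Mock, 18 of 68 were called lower and 9 higher, with a median of -0.022 beside -0.002 over all probes, where 26.2% of all probes were called lower and 24.5% higher. The muscle isoform Cox8b, the brighter probe of the muscle isoform Cox6a2, and Ndufa4l2, a relative of a complex IV subunit, moved far more, with -5.29, -4.95 and -5.39 in Sham against Mock. Of all 91 member probes, 54 were called in either direction in Sham against Mock, 50 in Vanillin against Sham and 40 in Vanillin against Mock, beside 59.7%, 47.9% and 50.7% of all probes. In bulk tissue, fewer cells of a type and less RNA per cell cannot be told apart.

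The count of 0 higher in Vanillin against Sham came from limma, and 0 of the 68 had an unadjusted p under 0.05 in that direction either. The changes of 9 subunit probes were above 0 and of 59 below 0. Sham against Mock had 56 above 0 and 12 below. Vanillin against Mock had 32 above and 36 below. Counted about the median change of all probes instead of 0, 42 lay above and 26 below in Sham against Mock. About that median, 18 lay above and 50 below in Vanillin against Sham, and 32 above and 36 below in Vanillin against Mock. These comparisons share arrays, and the Sham arrays enter the first 2 with opposite signs. The arrays of the groups did not overlap for 46 of 68 subunit probes in Sham against Mock (67.1% of all probes), for 42 in Vanillin against Sham (56.3%) and for 36 in Vanillin against Mock (60.4%). Subunit probes are bright, with a median mean intensity of 13202 beside 343.72 over all probes, and the shares were not matched for brightness. Some subunit probes named below were far dimmer than that subunit median. Among them were Ndufc2 (95 to 169 over the 9 arrays), Cox6c (158 to 218), Cox5b (271 to 514), Atp5c1 (312 to 387) and Atp5f1 (324 to 505). Counts moved with single arrays. In Sham against Mock, the lower count was 3 without Sham 1 in place of 6, and the higher count of Vanillin against Mock was 6 without Vanillin 2 and 12 without Vanillin 1, beside the 9 above.

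**Figure D1:**
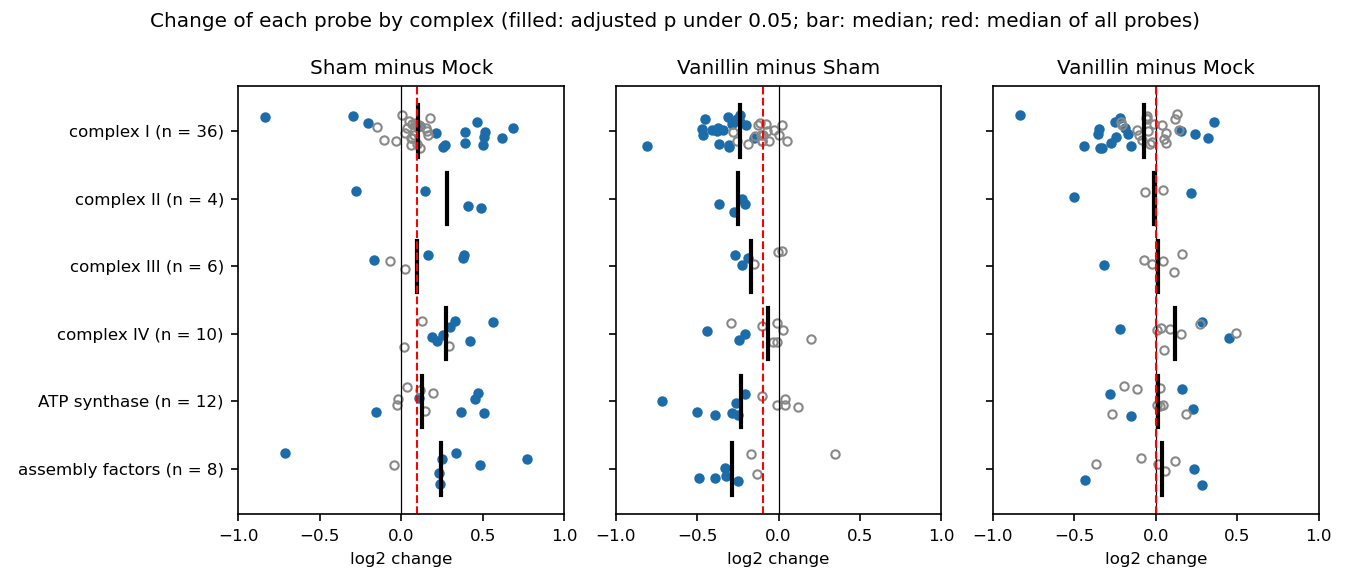
Log2 change of each subunit and assembly factor probe (1 point per probe) by complex in the 3 comparisons, with filled points for an adjusted p under 0.05, black bars for class medians and a red dashed line for the median of all probes. In Vanillin against Sham the class medians lie at or left of -0.067, and no filled point lies to the right of 0.

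The level per array shows the same order. The median deviation of the 68 subunit probes from each probe's mean over 9 arrays was -0.0885, -0.0795 and -0.0667 on the Vanillin arrays, 0.1252, 0.1189 and 0.1214 on the Sham arrays, and 0.001, -0.0673 and -0.031 on the Mock arrays. Sham arrays were the highest, and they did not overlap with either other group. Over all 26423 probes the same quantity was -0.0117, -0.0133 and -0.0306 on Vanillin, 0.069, 0.0807 and 0.0793 on Sham, and -0.0122, -0.0234 and -0.0215 on Mock arrays. The median deviation over all probes was thus also highest on the Sham arrays, by a smaller amount. The arrays' sorted log2 values were at most 0.109 apart, a spread larger than these all-probe deviations on the Sham arrays. The cause of the shift over all probes was not tested. For complex I, Vanillin arrays (-0.1039 to -0.0897) lay below Mock arrays (-0.0157 to 0.0078). For complex IV the order was the opposite, with Vanillin arrays at 0.0034 to 0.0452 and Mock arrays at -0.2075 to -0.0344.

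**Figure D2:**
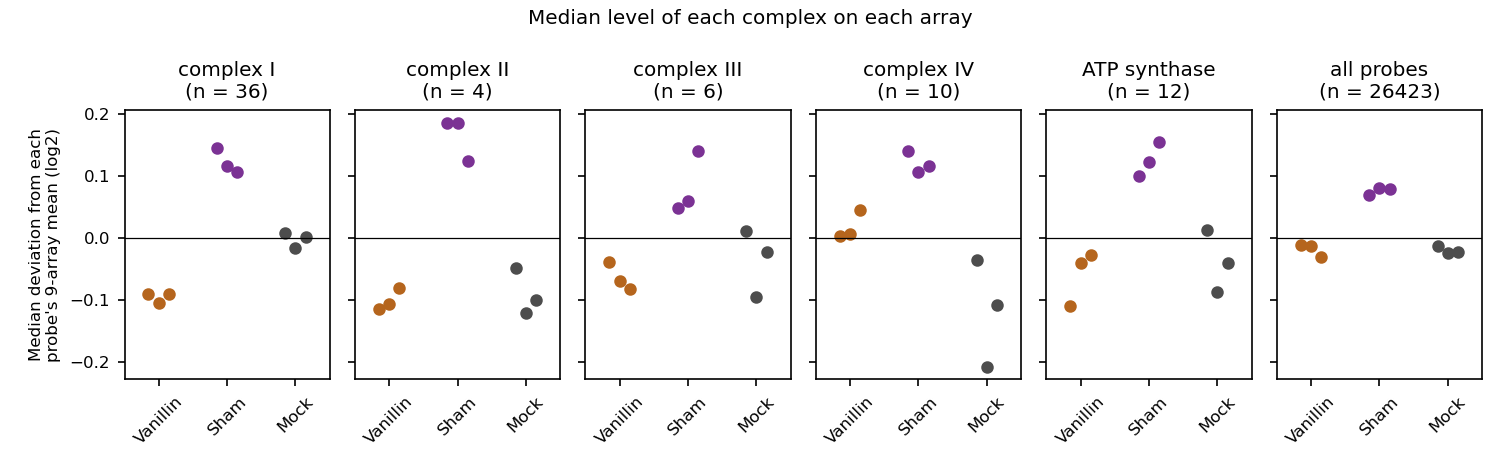
Median deviation (log2) of each complex's probes from the probe's mean over 9 arrays, 1 point per array, for Vanillin, Sham and Mock, with all 26423 probes in the last panel. Sham arrays lie highest in each panel, between 0.1071 and 0.1451 for complex I.

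Complex I takes electrons from NADH. Of its 36 probes, 12 were called higher (33.3%) and 3 lower (8.33%) in Sham against Mock, beside 36.5% and 23.2% of all probes. The median of 0.10 was close to that of all probes (0.0975). Between Vanillin and Sham, 19 were called lower (52.8%) and 0 higher, beside 32.2% and 15.7% of all probes. The median there was -0.24, beside -0.0938. Between Vanillin and Mock, 13 were called lower (36.1%) and 4 higher (11.1%), beside 26.2% and 24.5% of all probes. The median there was -0.075, beside -0.002.

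Ndufab1 is the mitochondrial acyl carrier protein, a complex I subunit that also serves fatty acid and iron-sulfur cluster synthesis. Its intensities were 839, 825 and 817 in the Vanillin arrays, 1499, 1448 and 1430.2 in the Sham arrays, and 893, 934 and 869.7 in the Mock arrays. Sham arrays were well above the others, with no overlap. The changes were 0.69 (SE 0.046, adjusted p = 1.44e-06) in Sham against Mock, -0.81 (SE 0.046, adjusted p = 1.39e-06) in Vanillin against Sham and -0.12 (adjusted p = 0.0622) in Vanillin against Mock, where the call was not made. Ndufb2, an accessory subunit of the membrane arm, had 7057, 6846 and 7167 in the Vanillin arrays, 9156, 9060.0 and 9078 in the Sham arrays, and 5831, 6275 and 5697 in the Mock arrays. The 3 groups were fully separate, with Vanillin between Sham and Mock. Ndufb2 rose by 0.62 (SE 0.05, adjusted p = 5.26e-06) in Sham against Mock, changed by -0.37 (adjusted p = 0.000321) in Vanillin against Sham and stayed higher by 0.24 (adjusted p = 0.00311) in Vanillin against Mock. Ndufa2, an accessory subunit of the matrix arm, was higher in Sham by 0.52 (adjusted p = 0.000265) and lower in Vanillin against Sham by -0.38 (adjusted p = 0.00298).

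Other complex I subunits were highest in Mock. Ndufb11, an accessory subunit of the membrane arm, had 2905, 2793 and 2531 in the Vanillin arrays, 3133, 3074 and 2878 in the Sham arrays, and 3739, 3774 and 3639 in the Mock arrays. Mock arrays lay above all others, while Vanillin and Sham arrays overlapped. Its changes were -0.29 (SE 0.062, adjusted p = 0.00272) in Sham against Mock and -0.44 (SE 0.062, adjusted p = 0.000329) in Vanillin against Mock. It was not called in Vanillin against Sham (-0.14, adjusted p = 0.0876), but was called there without Vanillin 1 (adjusted p = 0.0422). Ndufb10, its neighbour in the membrane arm, was called lower in Sham against Mock by -0.20 (adjusted p = 0.0414) and in Vanillin against Mock by -0.33 (adjusted p = 0.00549). The Sham against Mock call of Ndufb10 was lost without Mock 1, Mock 3, Sham 1, Sham 3 or Vanillin 2 (adjusted p = 0.0548 to 0.124).

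Some core subunits were lower in Vanillin than in both other groups. Ndufv2, an iron-sulfur subunit of the NADH-oxidising module, had 209, 207 and 209 in the Vanillin arrays, 296, 303 and 282 in the Sham arrays, and 274, 265 and 269.9 in the Mock arrays. Vanillin arrays lay below all others. Ndufv2 was lower by -0.47 (SE 0.045, adjusted p = 4.1e-05) in Vanillin against Sham and by -0.35 (SE 0.045, adjusted p = 0.000174) in Vanillin against Mock. Its call in Sham against Mock (0.12, adjusted p = 0.0476) was lost without Mock 1, Mock 2, Mock 3, Sham 1, Sham 2, Vanillin 1, Vanillin 2 or Vanillin 3 (adjusted p = 0.0523 to 0.131). Ndufb7, an accessory subunit on the intermembrane space side, was likewise lower by -0.47 (adjusted p = 0.000425) in Vanillin against Sham and by -0.35 (adjusted p = 0.00177) in Vanillin against Mock. Ndufs3, a core subunit of the quinone-binding module, was lower by -0.41 (adjusted p = 0.000759) and -0.25 (adjusted p = 0.00909) in these comparisons. Ndufs3 had 0.15 (adjusted p = 0.0616) in Sham against Mock, and was called without Sham 3 or Vanillin 3 (adjusted p = 0.0238 to 0.0499).

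Ndufs7, an iron-sulfur core subunit near the quinone site, was lower by -0.34 (adjusted p = 0.00709) in Vanillin against Sham. Its lower call in Vanillin against Mock (-0.27 (adjusted p = 0.0177)) was lost without Mock 2 or Vanillin 3 (adjusted p = 0.0561 to 0.0611). Ndufs8, another iron-sulfur core subunit, was called in no comparison.

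The iron-sulfur core subunit Ndufs1, the flavin-binding core subunit Ndufv1 and the accessory subunits Ndufa9 and Ndufb8 were called in no comparison, with changes of -0.28, -0.11, -0.075 and 0.05 in Vanillin against Sham. Ndufs1 was called there without Vanillin 1 (adjusted p = 0.0495). Ndufc2 and Ndufs4 were higher in Vanillin against Mock. Ndufs4, an accessory subunit whose loss causes Leigh-like disease in mice, rose in Sham against Mock by 0.39 (adjusted p = 0.000147) at its brighter probe and 0.46 (adjusted p = 5.21e-05) at its dimmer one. The probes gave 0.16 (adjusted p = 0.032) and 0.35 (adjusted p = 0.000437) in Vanillin against Mock. The brighter probe's call was lost without Mock 1, Mock 3, Vanillin 1 or Vanillin 2 (adjusted p = 0.0837 to 0.109). Between Vanillin and Sham the brighter probe was called (-0.23, adjusted p = 0.00517) and the dimmer one was not (-0.11, adjusted p = 0.121). Ndufc2, a membrane arm subunit with a dim probe (95 to 169), was higher by 0.51 (adjusted p = 0.000667) in Sham against Mock and by 0.32 (adjusted p = 0.0122) in Vanillin against Mock.

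Probes of Ndufv3, an accessory subunit of the NADH module, disagreed. The dimmest of its 3 probes had 849, 979 and 1007 in the Vanillin arrays, 941, 949 and 929 in the Sham arrays, and 1725, 1595 and 1757 in the Mock arrays. Mock arrays lay far above the overlapping Vanillin and Sham arrays, and the changes were -0.84 (SE 0.07, adjusted p = 6.74e-06) in Sham against Mock and -0.83 (SE 0.07, adjusted p = 1.17e-05) in Vanillin against Mock. The other 2 probes were not called in Sham against Mock (-0.15 and -0.032). They were lower by -0.25 (adjusted p = 0.0142) and -0.34 (adjusted p = 0.000293) in Vanillin against Mock, the first call being lost without Vanillin 2 (adjusted p = 0.0555). The middle probe was lower by -0.31 (adjusted p = 0.000701) in Vanillin against Sham, and the brightest and dimmest were not called (-0.094 and 0.0045). Ndufa11, a membrane arm subunit with 2 probes, was lower at its bright probe in Vanillin against Sham (-0.26) and Vanillin against Mock (-0.22), with no call at the dim probe (-0.26 and -0.21). The dim probe's Vanillin against Sham change was called without Vanillin 1 or Vanillin 2 (adjusted p = 0.0461 to 0.0497).

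**Figure D3:**
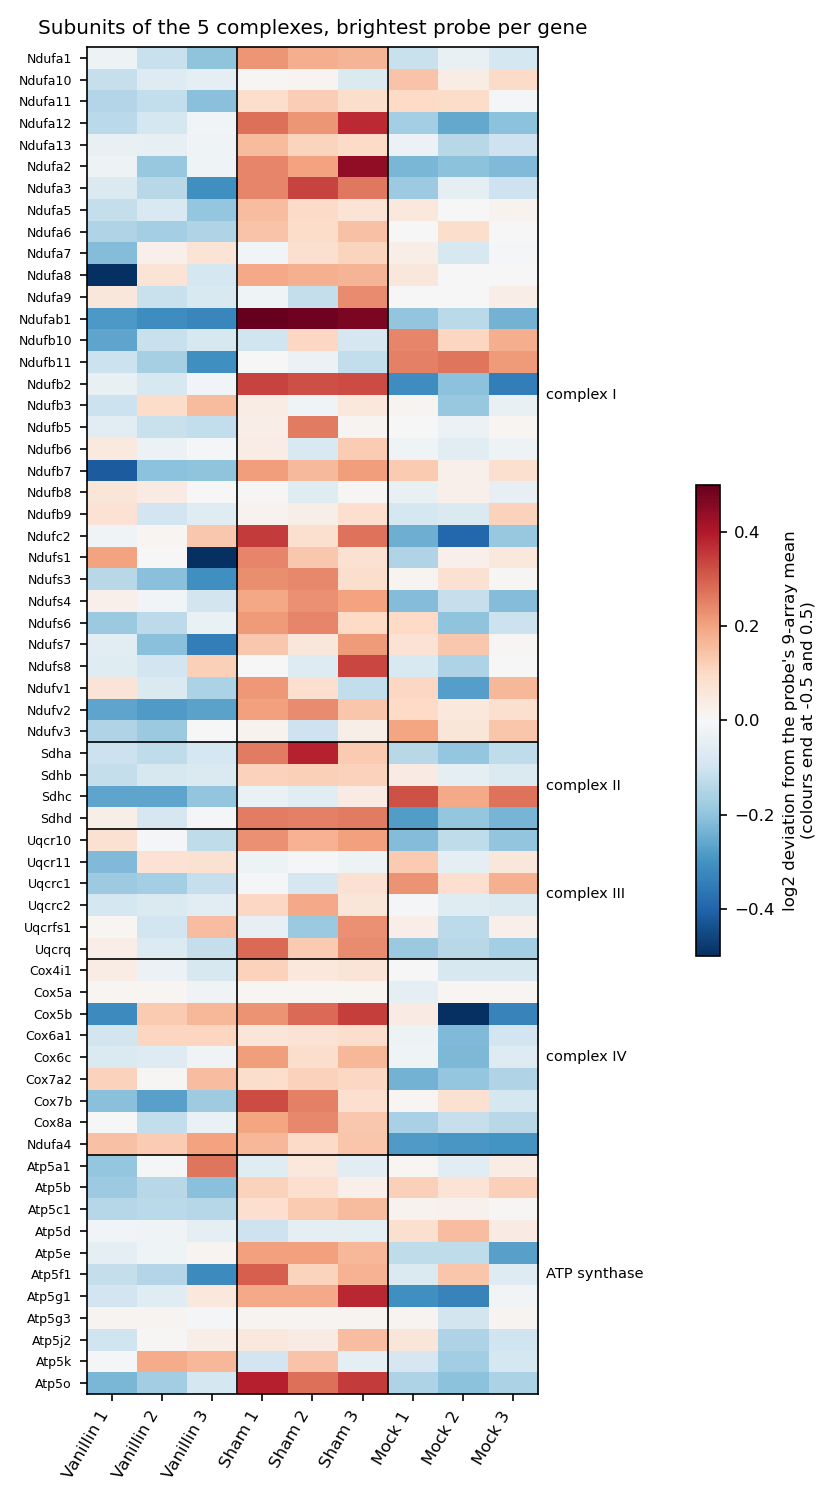
Log2 deviation of 62 subunit genes (rows, brightest probe each, grouped by complex) from the probe's mean over 9 arrays (columns, Vanillin, Sham, Mock), red above and blue below the mean, with colours ending at -0.5 and 0.5. Ndufab1, Ndufb2 and Atp5o are red on all 3 Sham arrays, and Sdhc and Ndufb11 are red on all 3 Mock arrays.

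Complex II oxidises succinate and belongs to both the respiratory chain and the tricarboxylic acid cycle. All 4 subunits were measured, and all 4 were called lower in Vanillin against Sham, beside 32.2% of all probes. In Sham against Mock 3 were called higher and 1 lower, beside 36.5% and 23.2% of all probes. Vanillin against Mock had 1 called higher and 1 lower, beside 24.5% and 26.2%. The membrane anchors Sdhc and Sdhd differed. Sdhd had 30546, 28208 and 29841 in the Vanillin arrays, 35776, 35653 and 35822 in the Sham arrays, and 24635, 26214 and 25449.6 in the Mock arrays. Its 3 groups were separate, with Sham highest and Mock lowest. Sdhc had 10484, 10476 and 10966 in the Vanillin arrays, 12315, 12087 and 12934 in the Sham arrays, and 15689.6, 14338 and 15191 in the Mock arrays. Here too the groups were separate, but Mock was highest and Vanillin lowest. Sdhd changed by 0.49 (SE 0.049, adjusted p = 2.03e-05) in Sham against Mock, -0.28 (adjusted p = 0.00153) in Vanillin against Sham and 0.22 (adjusted p = 0.00522) in Vanillin against Mock. In the same comparisons Sdhc changed by -0.28 (SE 0.053, adjusted p = 0.00157), -0.23 (adjusted p = 0.00711) and -0.50 (adjusted p = 4.93e-05).

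Sdha, the flavoprotein that holds the succinate site, had 12552, 12395 and 12748 in the Vanillin arrays, 16201, 17673 and 14826 in the Sham arrays, and 12298, 11843 and 12404 in the Mock arrays. Vanillin and Mock arrays overlapped below the Sham arrays. Sdha rose by 0.41 (SE 0.065, adjusted p = 0.000483) in Sham against Mock and was lower by -0.37 (adjusted p = 0.00164) in Vanillin against Sham. Sdhb, the iron-sulfur subunit, changed by 0.14 (adjusted p = 0.0241) in Sham against Mock and by -0.21 (adjusted p = 0.00555) in Vanillin against Sham. The first of these calls was lost without Mock 2, Mock 3, Sham 2 or Sham 3 (adjusted p = 0.0501 to 0.098), so the complex had 2 higher subunits in those fits.

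Complex III passes electrons from ubiquinol to cytochrome c. Of 6 probes, 3 were called higher and 1 lower in Sham against Mock, beside 36.5% and 23.2% of all probes. Vanillin against Sham had 3 lower and 0 higher, beside 32.2% and 15.7%. Vanillin against Mock had 1 lower and 0 higher, beside 26.2% and 24.5%, and limma gave 1 higher there at an unadjusted p under 0.05. The small accessory subunits Uqcr10 and Uqcrq were called in both of the first 2 comparisons. Uqcr10 had 57233, 53940.4 and 49714 in the Vanillin arrays, 63608, 61376 and 62669 in the Sham arrays, and 46802, 49714 and 47437 in the Mock arrays. Sham arrays were highest and overlapped with neither group. Uqcr10 rose by 0.38 (SE 0.059, adjusted p = 0.000426) in Sham against Mock, and was lower by -0.22 (adjusted p = 0.013) in Vanillin against Sham. Its change of 0.16 (adjusted p = 0.0521) in Vanillin against Mock was called without Vanillin 3 (adjusted p = 0.0139). Uqcrq changed by 0.38 (adjusted p = 0.000402) in Sham against Mock and -0.27 (adjusted p = 0.00491) in Vanillin against Sham.

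Uqcrc1 and Uqcrc2 are the core proteins. Uqcrc1 had 7859, 7921 and 8247 in the Vanillin arrays, 8883, 8412 and 9397 in the Sham arrays, and 10437, 9450.4 and 10095 in the Mock arrays. Vanillin arrays lay lowest and Mock arrays highest, without overlap. Uqcrc1 was lower in Vanillin against Mock by -0.32 (SE 0.059, adjusted p = 0.00177). Its Sham against Mock call (-0.17, adjusted p = 0.0359) was lost without Mock 1, Mock 3, Sham 1, Sham 2 or Vanillin 2 (adjusted p = 0.0522 to 0.116). Its change of -0.15 (adjusted p = 0.0649) in Vanillin against Sham was called without Sham 2 (adjusted p = 0.0393). Uqcrc2 changed by -0.19 (adjusted p = 0.0121) in Vanillin against Sham. Its Sham against Mock call (0.17, adjusted p = 0.0166) was lost without Mock 2, Mock 3 or Sham 2 (adjusted p = 0.05 to 0.0618). The Rieske iron-sulfur protein Uqcrfs1 and the accessory subunit Uqcr11 were called in no comparison.

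Complex IV reduces oxygen. Of its 10 probes outside the tissue isoforms, 7 were called higher and 0 lower in Sham against Mock, beside 36.5% and 23.2% of all probes. The median was 0.28, beside 0.0975. By limma, 0 of the 10 were lower at an unadjusted p under 0.05. Vanillin against Sham had 3 lower and 0 higher, beside 32.2% and 15.7% of all probes, with a median of -0.067. Vanillin against Mock had 2 called higher and 1 lower, beside 24.5% and 26.2%. The higher count there was 5 without Vanillin 1 in place of 2. Cox5a had 7 of 9 arrays at the top of the intensity range and 1 array of the bright Cox7a2 probe was there, so their changes may be underestimated.

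Ndufa4 was first assigned to complex I and is now counted as a complex IV subunit. It had 61885, 61137 and 64389.7 in the Vanillin arrays, 62794, 59891 and 61562 in the Sham arrays, and 45945, 45748 and 45550.4 in the Mock arrays. Vanillin and Sham arrays overlapped, and all lay above the Mock arrays. Ndufa4 rose by 0.42 (SE 0.044, adjusted p = 2.82e-05) in Sham against Mock and by 0.45 (SE 0.044, adjusted p = 3.05e-05) in Vanillin against Mock. The difference between Vanillin and Sham was 0.025 (adjusted p = 0.684). The Vanillin and Sham values of Ndufa4 lay near the highest value of the series (65510), so its changes may be underestimated. Cox7a2, the ubiquitous counterpart of Cox7a1, showed the same order at its bright probe, with 0.30 (adjusted p = 0.000952) in Sham against Mock, -0.012 (adjusted p = 0.872) in Vanillin against Sham and 0.28 (adjusted p = 0.00164) in Vanillin against Mock. Its dim probe was not called in Sham against Mock (0.29) or Vanillin against Mock (0.49 (adjusted p = 0.0503)), though that second change was called without Mock 1, Sham 1 or Vanillin 1 (adjusted p = 0.0346 to 0.0364).

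Cox7b, a structural subunit, had 178, 169.7 and 182 in the Vanillin arrays, 265, 251 and 221 in the Sham arrays, and 209, 220.3 and 195 in the Mock arrays. Vanillin arrays lay lowest and Sham arrays highest. Cox7b was lower in Vanillin against Sham by -0.44 (SE 0.073, adjusted p = 0.00109). Its calls in Sham against Mock (0.22) and Vanillin against Mock (-0.22) were both lost with 1 array left out, the first without Mock 1, Mock 3, Sham 1 or Sham 2 (adjusted p = 0.0527 to 0.0978) and the second without Mock 1, Mock 2, Vanillin 1, Vanillin 2 or Vanillin 3 (adjusted p = 0.0506 to 0.111). Cox8a, the ubiquitous counterpart of Cox8b, had 46558, 42736 and 45550.4 in the Vanillin arrays, 53404, 54975 and 51169.9 in the Sham arrays, and 41673, 43037 and 42275 in the Mock arrays. It rose by 0.33 (SE 0.051, adjusted p = 0.000446) in Sham against Mock and was lower by -0.24 (adjusted p = 0.00422) in Vanillin against Sham.

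Of the remaining complex IV subunits, the zinc-binding subunit Cox5b had the largest change in Sham against Mock, at 0.56 (SE 0.16, adjusted p = 0.0147). That call was lost without Mock 2 (adjusted p = 0.0514). Cox5b had 0.27 (adjusted p = 0.198) in Vanillin against Mock, called without Mock 1 or Vanillin 1 (adjusted p = 0.0379 to 0.0411). Cox6c was higher in Sham against Mock by 0.26 (adjusted p = 0.00618). Its call in Vanillin against Sham (-0.20, adjusted p = 0.0247) was lost without Sham 1, Sham 3, Vanillin 1 or Vanillin 2 (adjusted p = 0.0574 to 0.079). Cox6a1, the ubiquitous counterpart of Cox6a2, had 0.19 (adjusted p = 0.0468) in Sham against Mock, lost without Mock 2, Mock 3, Sham 1, Sham 2, Sham 3, Vanillin 2 or Vanillin 3 (adjusted p = 0.0525 to 0.156). Cox6a1 had 0.16 (adjusted p = 0.0998) in Vanillin against Mock, called without Vanillin 1 (adjusted p = 0.0206). Cox4i1, the ubiquitous form of the subunit that ATP regulates, had 0.13 (adjusted p = 0.0513) in Sham against Mock, called without Mock 1, Vanillin 1 or Vanillin 3 (adjusted p = 0.0401 to 0.048).

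ATP synthase turns the proton gradient into ATP. Of 12 probes, 5 were called higher (41.7%) and 1 lower in Sham against Mock, beside 36.5% and 23.2% of all probes. Vanillin against Sham had 7 lower and 0 higher, beside 32.2% and 15.7%. Vanillin against Mock had 2 higher and 2 lower, beside 24.5% and 26.2%. The 5 higher calls in Sham against Mock became 3 without Mock 3, Sham 2 or Sham 3. Atp5o, which joins the catalytic head to the outer stalk, had 539.6, 561 and 596 in the Vanillin arrays, 836, 773 and 813 in the Sham arrays, and 569, 548 and 568 in the Mock arrays. Sham arrays stood apart above the overlapping Vanillin and Mock arrays. Its changes were 0.51 (SE 0.054, adjusted p = 3.2e-05) in Sham against Mock, -0.50 (SE 0.054, adjusted p = 8.22e-05) in Vanillin against Sham and 0.0083 (adjusted p = 0.913) in Vanillin against Mock.

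Atp5b, the catalytic beta subunit of the head, had 4148, 4269 and 4062 in the Vanillin arrays, 5102, 4985 and 4783 in the Sham arrays, and 5111, 4930.2 and 5108 in the Mock arrays. Vanillin arrays lay below the overlapping Sham and Mock arrays. Atp5b was lower by -0.25 (SE 0.047, adjusted p = 0.00208) in Vanillin against Sham and by -0.28 (adjusted p = 0.000941) in Vanillin against Mock. The alpha subunit Atp5a1 was called in no comparison. Atp5c1, the gamma subunit of the rotor, was lower by -0.26 (adjusted p = 0.00084) in Vanillin against Sham and by -0.15 (adjusted p = 0.0134) in Vanillin against Mock. Its Sham against Mock call (0.11, adjusted p = 0.0474) was lost without Mock 1, Mock 2, Mock 3, Sham 2, Sham 3, Vanillin 1, Vanillin 2 or Vanillin 3 (adjusted p = 0.0508 to 0.129). Atp5f1, the b subunit of the outer stalk, was lower by -0.39 (adjusted p = 0.00425) in Vanillin against Sham. It was not called in Sham against Mock (0.20) except without Mock 2 (adjusted p = 0.0244).

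The c-ring that the protons turn is encoded by several genes, of which Atp5g1 and Atp5g3 were measured. Atp5g1 was higher in Sham against Mock by 0.47 (adjusted p = 0.00213) at its bright probe and 0.45 (adjusted p = 0.0377) at its dim one, the dim call being lost without Mock 2, Mock 3, Sham 1, Sham 2 or Sham 3 (adjusted p = 0.0653 to 0.103). The probes gave -0.29 (adjusted p = 0.0344) and -0.72 (adjusted p = 0.00571) in Vanillin against Sham, the bright call being lost without Sham 1, Sham 3, Vanillin 1 or Vanillin 2 (adjusted p = 0.0519 to 0.11). The bright probe had 0.18 (adjusted p = 0.138) in Vanillin against Mock, called without Mock 3 (adjusted p = 0.02). Atp5g3 was at the top of the intensity range on 6 of 9 arrays and was not called.

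Of the small subunits, Atp5e, the epsilon subunit, was higher in Sham against Mock by 0.37 (adjusted p = 0.00026) and lower in Vanillin against Sham by -0.21 (adjusted p = 0.0106). Its higher call in Vanillin against Mock (0.16) was lost without Mock 3, Vanillin 2 or Vanillin 3 (adjusted p = 0.0778 to 0.127). Atp5k, a membrane subunit, had 0.23 (adjusted p = 0.0345) in Vanillin against Mock, lost without Mock 1, Mock 2, Mock 3, Vanillin 2 or Vanillin 3 (adjusted p = 0.0563 to 0.112). Those are the 2 higher calls of ATP synthase in Vanillin against Mock. The dim probe of Atp5d, the delta subunit, was the 1 lower call in Sham against Mock (-0.16, adjusted p = 0.0173), lost without Mock 2 or Sham 1 (adjusted p = 0.0526 to 0.067).

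Assembly factors build the complexes and are not part of them. Of 8 probes, 6 were called higher and 1 lower in Sham against Mock, beside 36.5% and 23.2% of all probes. Vanillin against Sham had 5 lower and 0 higher (1 higher at an unadjusted p under 0.05 in limma), beside 32.2% and 15.7%. Vanillin against Mock had 2 higher and 1 lower, beside 24.5% and 26.2%. Sdhaf1, needed to insert the iron-sulfur clusters of Sdhb, had 10779, 7919 and 9799 in the Vanillin arrays, 13231, 13896 and 12634 in the Sham arrays, and 7817, 7773 and 7663 in the Mock arrays. All Sham arrays lay above the others, and the Vanillin arrays spread widely. Sdhaf1 rose by 0.77 (SE 0.1, adjusted p = 0.000138) in Sham against Mock and was lower by -0.49 (adjusted p = 0.00365) in Vanillin against Sham. Its Vanillin against Mock call (0.28, adjusted p = 0.0442) was lost without Mock 1, Mock 2, Mock 3, Sham 1, Sham 2, Sham 3, Vanillin 1 or Vanillin 3 (adjusted p = 0.056 to 0.123).

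Among complex I factors, Ndufaf2 was higher in Sham against Mock by 0.48 (adjusted p = 0.00014) and lower in Vanillin against Sham by -0.25 (adjusted p = 0.0105). Its Vanillin against Mock call (0.23) was lost without Mock 2 or Vanillin 2 (adjusted p = 0.0514 to 0.0536). Ndufaf3 changed by 0.33 (adjusted p = 0.001) and -0.32 (adjusted p = 0.00209) in the first 2 comparisons. Ndufaf1 had 1304, 1372 and 1281 in the Vanillin arrays, 1804, 1749 and 1649.6 in the Sham arrays, and 1764, 1774 and 1826 in the Mock arrays. Vanillin arrays lay below the rest, and Ndufaf1 was lower by -0.39 (SE 0.052, adjusted p = 0.000295) in Vanillin against Sham and -0.43 (SE 0.052, adjusted p = 0.000108) in Vanillin against Mock. Cox7a2l, a factor that joins complexes III and IV, gave a dim signal and was lower in Sham against Mock by -0.71 (adjusted p = 0.00155). It had -0.37 (adjusted p = 0.0513) in Vanillin against Mock, called without Sham 2 or Sham 3 (adjusted p = 0.00631 to 0.0275), and in Vanillin against Sham 0.35 (adjusted p = 0.0635), called without Sham 2 (adjusted p = 0.017).

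The muscle isoforms replace Cox6a1, Cox7a2 and Cox8a in striated muscle. The 300-base promoter windows of Cox8b and of its ubiquitous counterpart Cox8a are shown because the pair moved in opposite directions in Sham against Mock. The windows run 250 bases before to 50 after the start, from RefSeq on GRCm38.p6, both on the minus strand, Cox8b at chr7:140900397-140900696 and Cox8a at chr19:7217567-7217866. Capitals mark matches to CAGCTG (an E-box), CCGGAAG (the ETS or GABP type), GCGCA and GCGC with 1 base between (the NRF1 type) and TATAAA, searched on both strands.
Cox8b: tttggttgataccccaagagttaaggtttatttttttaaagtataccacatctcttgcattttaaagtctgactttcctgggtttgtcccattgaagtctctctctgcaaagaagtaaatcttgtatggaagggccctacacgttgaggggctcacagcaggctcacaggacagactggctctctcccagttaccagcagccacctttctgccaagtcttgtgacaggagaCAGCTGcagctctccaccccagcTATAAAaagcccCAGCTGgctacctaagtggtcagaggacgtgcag
Cox8a: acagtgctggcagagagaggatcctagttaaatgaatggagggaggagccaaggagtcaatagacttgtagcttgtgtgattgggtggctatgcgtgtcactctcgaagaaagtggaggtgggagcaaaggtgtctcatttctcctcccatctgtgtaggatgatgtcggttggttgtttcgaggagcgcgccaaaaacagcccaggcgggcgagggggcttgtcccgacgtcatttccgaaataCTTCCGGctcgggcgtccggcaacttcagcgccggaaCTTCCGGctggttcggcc

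The Cox8b window held CAGCTG 2 times and TATAAA 1 time, and the Cox8a window CCGGAAG 2 times. Counted from the annotated start, CAGCTG of Cox8b began at -19 and 17 and its TATAAA at 5. CCGGAAG of Cox8a began at -5 and 33. Positive positions lie after the start. Of 80 member genes, 66 matched a window, among them 53 of the 62 subunit genes. Among 57 windows of subunit genes, 24.6% held the NRF1 type, beside 4.6% of 32851 windows in all, and 19.3% held CCGGAAG, beside 8.86%. For CAGCTG the shares were 7.02% and 16.3%, and for TATAAA 8.77% and 13.6%. These matches describe letters in the windows, and no binding was measured.

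Cox8b, the heart and skeletal muscle form of subunit 8, had 1414, 1401 and 1579 in the Vanillin arrays, 107, 104 and 107 in the Sham arrays, and 4742, 4606 and 4948 in the Mock arrays. The groups were far apart, with Sham lowest and Mock highest. Means were 1465 ± 99 in Vanillin, 106 ± 1.8 in Sham and 4765 ± 172 in Mock (SD, n = 3 each). Changes were -5.29 (SE 0.058, adjusted p = 6.43e-12) in Sham against Mock, 3.60 (SE 0.058, adjusted p = 1.51e-10) in Vanillin against Sham and -1.69 (SE 0.058, adjusted p = 3.4e-08) in Vanillin against Mock.

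Cox6a2, the heart and skeletal muscle form of subunit 6a, has 2 probes that disagree in size. The brighter one had 549, 494 and 603 in the Vanillin arrays, 70.6, 60.8 and 70.6 in the Sham arrays, and 2665, 2304 and 2688 in the Mock arrays. Its groups were as separate as those of Cox8b, and the changes were -4.95 (SE 0.092, adjusted p = 1.73e-10) in Sham against Mock, 2.76 (SE 0.092, adjusted p = 2.62e-08) in Vanillin against Sham and -2.19 (SE 0.092, adjusted p = 1.21e-07) in Vanillin against Mock. The dimmer one had 337, 346 and 322 in the Vanillin arrays, 253, 341 and 313 in the Sham arrays, and 377, 603 and 574 in the Mock arrays. Here the Vanillin and Sham arrays overlapped. The dimmer probe changed by -0.73 (adjusted p = 0.00474) in Sham against Mock, and in Vanillin against Sham it had 0.15 (adjusted p = 0.506). Its Vanillin against Mock call (-0.58, adjusted p = 0.0187) was lost without Mock 2, Mock 3 or Vanillin 3 (adjusted p = 0.0578 to 0.0666).

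Cox7a1 is found in striated muscle and in brown fat. It had 282, 257 and 302 in the Vanillin arrays, 511, 494 and 492 in the Sham arrays, and 737, 789 and 841 in the Mock arrays. Unlike the other muscle isoforms, it was lowest in Vanillin, and the groups did not overlap. The changes were -0.64 (SE 0.069, adjusted p = 3.74e-05) in Sham against Mock, -0.80 (SE 0.069, adjusted p = 2.21e-05) in Vanillin against Sham and -1.44 (SE 0.069, adjusted p = 2.87e-07) in Vanillin against Mock.

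**Figure D4:**
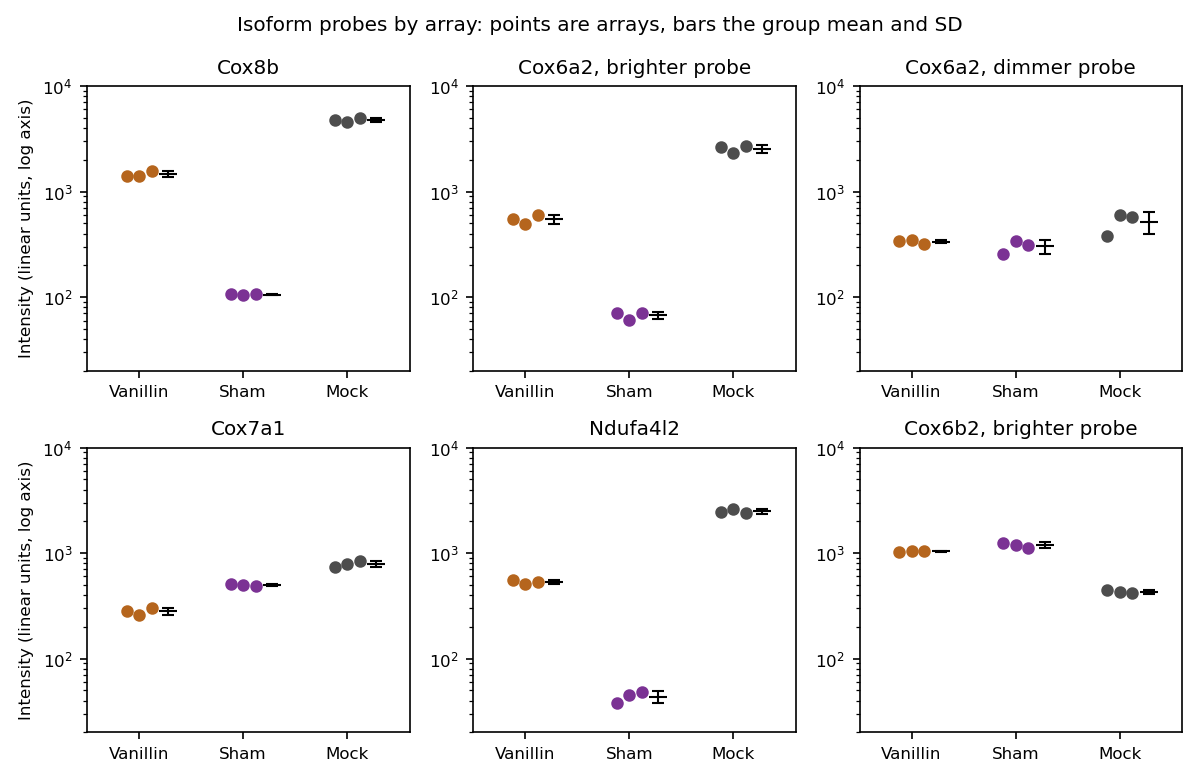
Intensity (linear units on a log axis) of muscle and other tissue isoform probes on each array, with group mean and SD, for Vanillin, Sham and Mock. Cox8b, the brighter Cox6a2 probe and Ndufa4l2 are lowest in Sham, Cox7a1 is lowest in Vanillin, and Cox6b2 is lowest in Mock.

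Genes of other tissues moved beside these isoforms. All 10 measured skeletal muscle markers were called lower in Sham against Mock, with a median of -5.69. Vanillin against Sham had 9 called higher and 1 lower, with a median of 3.81, and in Vanillin against Mock all 10 were called lower, with a median of -1.83. Their summed intensities were 65272 to 69872 on Vanillin, 3626 to 3826 on Sham and 175570 to 184896 on Mock arrays, and 0 of these markers were at 0 on any array. Ckm, the muscle creatine kinase, had 3817, 4232 and 4542 in the Vanillin arrays, 251, 229 and 236 in the Sham arrays, and 23562, 20297 and 22338 in the Mock arrays. It was lowest in Sham and highest in Mock.

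Smooth muscle markers fell in both AOM/DSS groups, 6 of 6 in Sham against Mock (median -2.02) and 6 of 6 in Vanillin against Mock (median -1.76), while 4 of 6 were called higher and 0 lower in Vanillin against Sham (median 0.27, with 0 lower at an unadjusted p under 0.05 in limma). They summed to 46551 to 49840 on Vanillin, 40406 to 43125 on Sham and 93504 to 94877 on Mock arrays. Adipocyte markers, 11 measured, summed to 103145 to 106824 on Vanillin, 26251 to 27293 on Sham and 121479 to 123219 on Mock arrays. They had 2 called higher and 9 lower in Sham against Mock, 8 higher and 3 lower in Vanillin against Sham, and 7 lower in Vanillin against Mock. The 6 cardiac or slow muscle markers had 5 called lower in Sham against Mock, 2 higher in Vanillin against Sham and 5 lower in Vanillin against Mock, and summed to 7650 to 8745 on Vanillin, 6580 to 6835 on Sham and 21709 to 22677 on Mock arrays. The 8 brown adipocyte markers summed to 13092 to 14147 on Vanillin, 4619 to 4924 on Sham and 14290 to 15086 on Mock arrays. Of them 4 were called higher and 2 lower in Sham against Mock, beside 36.5% and 23.2% of all probes. There were 2 higher and 3 lower in Vanillin against Sham, beside 15.7% and 32.2%. In Vanillin against Mock 2 were higher and 2 lower, beside 24.5% and 26.2%, and the lower count was 1 without Mock 2 or Mock 3. Ppargc1a, given below with the biogenesis regulators, also counts in this list. The brown fat gene Ucp1 stayed dim, at 32.7, 26.2 and 23.3 in the Vanillin arrays, 34.6, 28.9 and 31.7 in the Sham arrays, and 31.9, 33.8 and 30.1 in the Mock arrays. The part of these tissues in the isoform values, and in the smaller changes of the subunits, was not tested.

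**Figure D5:**
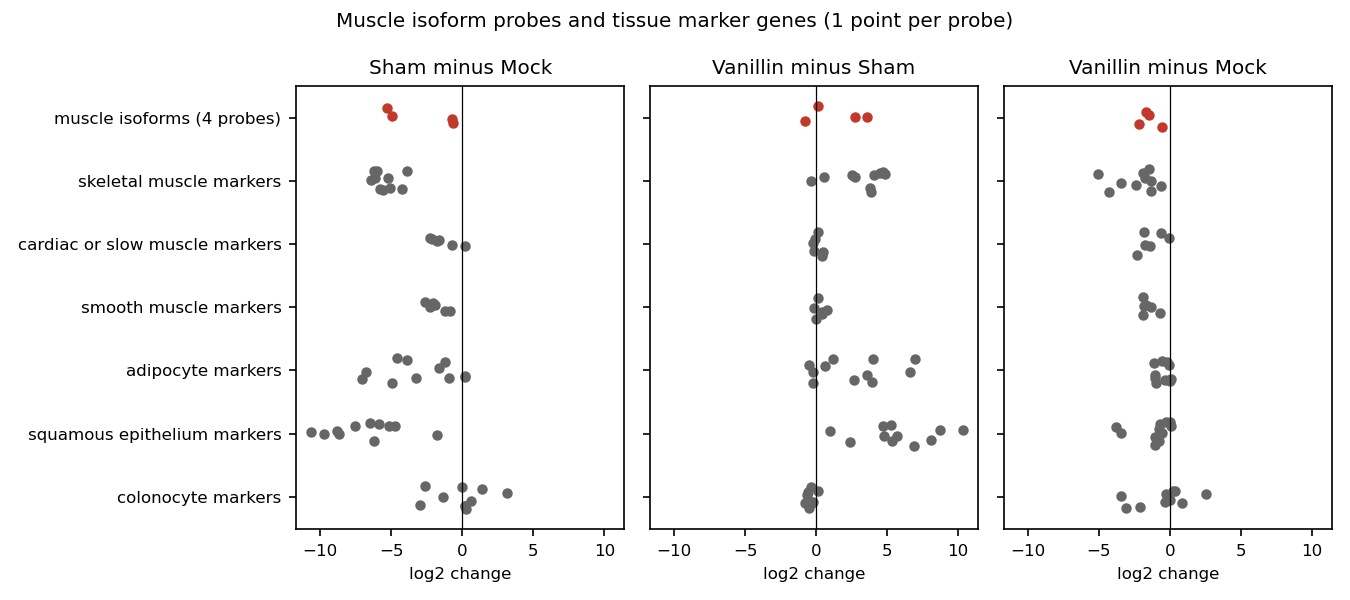
Log2 change of 4 muscle isoform probes (red) and of tissue marker genes (grey), 1 point per probe, in the 3 comparisons. The median of the skeletal muscle markers was -5.69 in Sham against Mock and 3.81 in Vanillin against Sham. In the same comparisons Cox8b had -5.29 and 3.60, and the brighter Cox6a2 probe -4.95 and 2.76. The dimmer Cox6a2 probe had -0.73 and 0.15, and Cox7a1 had -0.64 and -0.80.

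Of the other tissue isoforms, Ndufa4l2 had the largest change. It encodes a hypoxia-induced relative of Ndufa4. Its intensities were 553, 511 and 532 in the Vanillin arrays, 37.7, 44.8 and 48.8 in the Sham arrays, and 2429, 2615 and 2402 in the Mock arrays. Sham arrays were lowest and Mock arrays highest, with wide gaps. The changes were -5.39 (SE 0.075, adjusted p = 2.71e-11) in Sham against Mock, 3.20 (SE 0.075, adjusted p = 1.93e-09) in Vanillin against Sham and -2.19 (SE 0.075, adjusted p = 3.25e-08) in Vanillin against Mock. Its relative Ndufa4 rose in Sham against Mock, as given above.

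Cox6b2, the testis form of subunit 6b, was higher in both AOM/DSS groups. Its brighter probe had 1024, 1035 and 1057 in the Vanillin arrays, 1256, 1196 and 1118 in the Sham arrays, and 449, 424 and 415 in the Mock arrays. Mock arrays lay lowest, and Vanillin arrays lay just below Sham arrays. Cox6b2 rose by 1.44 (SE 0.056, adjusted p = 3.13e-08) in Sham against Mock and by 1.25 (SE 0.056, adjusted p = 1.96e-07) in Vanillin against Mock, and the other probe by 1.19 (adjusted p = 1.8e-06) and 1.07 (adjusted p = 6.46e-06). The brighter probe's call in Vanillin against Sham (-0.19, adjusted p = 0.0206) was lost without Sham 1, Sham 2 or Vanillin 2 (adjusted p = 0.0521 to 0.0671), and the other probe was not called (-0.12). The testis form Cox8c, at a dim signal, was higher by 0.71 (adjusted p = 0.00028) in Sham against Mock and 0.80 (adjusted p = 0.000185) in Vanillin against Mock. The lung form Cox4i2 was called in no comparison. The testis form Cox7b2 was also not called, apart from Vanillin against Sham without Vanillin 1 (adjusted p = 0.0388).

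The prefix matches that are no subunits were Atp5s and Atp5sl (now Dmac2l and Dmac2) and Cox4nb (now Emc8). Of their 5 probes, 3 were called higher in Sham against Mock, beside 36.5% of all probes. In Vanillin against Sham 4 were called lower, beside 32.2% of all probes, and the 4 became 2 without Sham 2. The probes of Cox4nb, a subunit of the endoplasmic reticulum membrane complex, disagreed in Vanillin against Mock, at 0.37 (adjusted p = 0.00109) for the brighter and -0.26 (adjusted p = 0.0315) for the dimmer. The dimmer probe's call was lost without Mock 1, Mock 2, Vanillin 1 or Vanillin 2 (adjusted p = 0.0673 to 0.111).

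Genes that feed, build or regulate the chain were listed apart from the members. Of 13 measured regulators of mitochondrial biogenesis, 9 were called higher and 1 lower in Sham against Mock (median 0.23), 11 lower and 0 higher in Vanillin against Sham (median -0.34, with 0 higher at an unadjusted p under 0.05 in limma), and 3 higher and 4 lower in Vanillin against Mock (median -0.058). The 3 became 1 without Vanillin 3, and the 1 lower call in Sham against Mock, Esrra, was lost without Mock 1, Mock 2, Sham 2 or Sham 3 (adjusted p = 0.0541 to 0.112). Ppargc1a, the coactivator that drives mitochondrial biogenesis, had 381, 328 and 338 in the Vanillin arrays, 683, 643 and 551 in the Sham arrays, and 294, 356 and 377 in the Mock arrays. Sham arrays were highest and overlapped with neither group, while Vanillin and Mock arrays overlapped. It changed by 0.84 (SE 0.11, adjusted p = 0.00013) in Sham against Mock and -0.81 (SE 0.11, adjusted p = 0.000331) in Vanillin against Sham. Tfam, which packages and transcribes mitochondrial DNA, changed by 0.38 (adjusted p = 0.000111) and -0.44 (adjusted p = 8.75e-05) in these comparisons. Esrra, a nuclear receptor for respiratory genes, was lower in Vanillin against Mock by -0.34 (adjusted p = 0.000781).

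Of 30 measured assembly factors outside the prefixes, 17 were called higher and 7 lower in Sham against Mock. Vanillin against Sham had 2 higher and 16 lower, and the 16 became 11 without Vanillin 2. Vanillin against Mock had 4 higher and 8 lower, and the 4 became 2 without Vanillin 2 or Vanillin 3. Taco1, a translational activator of the mitochondrial Cox1 message, had 380.0, 383 and 371 in the Vanillin arrays, 704, 688 and 645 in the Sham arrays, and 362, 372 and 367 in the Mock arrays. Sham arrays stood far above the overlapping others, and the changes were 0.86 (SE 0.048, adjusted p = 3.66e-07) in Sham against Mock and -0.82 (SE 0.048, adjusted p = 1.51e-06) in Vanillin against Sham. Acad9 and Ecsit, complex I assembly factors, were lower in Sham against Mock, by -0.39 (adjusted p = 0.000313) and -0.67 (adjusted p = 5.95e-05). Of 16 measured tricarboxylic acid cycle genes, 6 were called higher and 2 lower in Sham against Mock, 0 higher and 7 lower in Vanillin against Sham (2 higher at an unadjusted p under 0.05 in limma), and 2 higher and 4 lower in Vanillin against Mock. The 2 lower calls in Sham against Mock became 1 without Mock 2, Mock 3, Sham 1, Sham 2 or Vanillin 2. The 2 higher calls in Vanillin against Mock were lost without Mock 2 or Vanillin 3. For these lists too, the shares of all probes called in each direction are those given above.

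Of 8 measured ADP/ATP and phosphate carriers and kinases, 2 were called higher and 3 lower in Sham against Mock, 2 higher and 2 lower in Vanillin against Sham, with 1 higher when any array other than Vanillin 3 was left out, and 0 higher and 4 lower in Vanillin against Mock (1 higher at an unadjusted p under 0.05 in limma). Ckmt2, the mitochondrial creatine kinase of striated muscle, had 271, 297 and 317 in the Vanillin arrays, 127, 109.7 and 113 in the Sham arrays, and 2237, 2161 and 2292 in the Mock arrays. Its groups were far apart, with Sham lowest, and the changes were -4.08 (SE 0.071, adjusted p = 1.16e-10) in Sham against Mock, 1.23 (SE 0.071, adjusted p = 1.42e-06) in Vanillin against Sham and -2.85 (SE 0.071, adjusted p = 5.36e-09) in Vanillin against Mock. Slc25a4, the ADP/ATP exchanger most used in heart and muscle, was lower in Sham against Mock by -0.59 (adjusted p = 6.23e-06) and in Vanillin against Mock by -0.45 (adjusted p = 6.35e-05). Of 4 measured electron carriers outside the complexes, 1 was called higher and 1 lower in Sham against Mock, 1 higher and 0 lower in Vanillin against Sham (0 lower at an unadjusted p under 0.05 in limma), and 1 higher and 1 lower in Vanillin against Mock. Of 3 uncoupling proteins, 1 was called lower in Sham against Mock, 1 higher and 1 lower in Vanillin against Sham, and 2 lower in Vanillin against Mock. Ucp3, the uncoupling protein of skeletal muscle, was dim and changed by -1.46 (adjusted p = 5.75e-09) in Sham against Mock, 0.38 (adjusted p = 0.000161) in Vanillin against Sham and -1.08 (adjusted p = 1.13e-07) in Vanillin against Mock.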

How the data were processed

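The deposited values are probe intensities on a linear scale for 26423 probes on 9 arrays, made with Cy5 from amplified RNA, per the labels. Limma was used, per the submitters' processing notes, with no role given. Between 3 and 14 values per array are below 0, as background subtraction can give, and the arrays' sorted log2 values differ by at most 0.109, as a between-array normalization such as quantile can give. No source used here names either step, the scanner or a probe filter.

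Negative values were set to 0, log2(value + 16) was modelled by lmFit and eBayes of limma 3.58.1 under R 4.3.3 with 3 group means over all 9 arrays, and p-values were adjusted by Benjamini-Hochberg over 26423 probes. The residual degrees of freedom were 6, and the number of arrays limits the precision. The script was tested on simulated data. Members and gene lists were chosen with earlier results of these data known. The text names up to 3 increases and 3 decreases per complex and comparison among called members whose arrays do not overlap, plus a set list of core subunits and isoform pairs whatever their values, by the brightest probe, with other probes where they differ. Ndufa11, Ndufs7, Ndufs8, Ndufaf1, Taco1, Acad9, Ecsit and the other genes outside the prefixes were named after their values were seen. Gene roles are background. Alternatives changed the pseudocount, probe filter, normalization, array weights, trend, arrays left out and a replicate block. Array numbers were not used to pair samples.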

Additional observations from a re-analysis of the deposited data

How the results depend on the processing

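Over all 91 members, 42 were called higher and 12 lower in Sham against Mock, 3 higher and 47 lower in Vanillin against Sham, and 15 higher and 25 lower in Vanillin against Mock. Over all probes, the shares were 36.5% higher and 23.2% lower in Sham against Mock. They were 15.7% and 32.2% in Vanillin against Sham, and 24.5% and 26.2% in Vanillin against Mock. With a minimum change of 0.5 (log2), the member counts became 11 higher and 7 lower in Sham against Mock, 4 lower in Vanillin against Sham, and 3 higher and 7 lower in Vanillin against Mock, by construction of that rule. Leaving out 1 array at a time gave 33 to 42 higher and 9 to 12 lower in Sham against Mock, 3 to 4 higher and 41 to 48 lower in Vanillin against Sham, and 11 to 17 higher and 20 to 26 lower in Vanillin against Mock. Every other alternative tried kept the 6 counts within 1.5 times, and none of the 273 member comparisons changed direction with a call.

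With the array number as a replicate block, the counts were 39 higher and 11 lower, 4 higher and 44 lower, and 14 higher and 26 lower in the 3 comparisons. Deviations of same-numbered arrays correlated at -0.2876 to 0.201 and of differently numbered ones at -0.2026 to 0.215. Of 9 arrays, 3 correlated best with their own number. With 3 arrays per group, these values cannot decide whether same-numbered arrays shared more than a number. Under the block, 11 calls were lost and 5 gained. Array weights raised the higher count of the 68 subunit probes in Vanillin against Mock, 9 without weights, to 16, and the cause was not tested. Quantile normalization of the deposited values changed no call, and median centring lost 3. The median change over all probes (0.0975, -0.0938 and -0.002) and probes at the top of the intensity range limit small changes.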
